A study of Homo sapiens with 2 samples.

Results

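Glycerolipid synthesis and lipid droplet genes were compared between 2 subclones of HMC1, an established human cell line derived from mast cell leukaemia. The set was fixed by name as 10 genes: GPAT3, GPAT4, AGPAT1, AGPAT2, AGPAT3, LPIN1, LPIN2, DGAT1, DGAT2 and PLIN2. All probe sets that the annotation of the Affymetrix U133 Plus 2.0 array assigns to these genes alone were used. There were 18 such probe sets for 9 of the 10 genes, out of 19775 genes named on the array, and AGPAT3 was not analysed here. The genes were chosen by name, with the measured log2 difference of GPAT3 between these arrays already known, so all values below are a description.

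One array held RNA from CD2-positive cells, and the second held RNA from CD2-negative cells. Both subclones came from fluorescence-activated sorting of HMC1 cells with an antibody against the surface receptor CD2. No further treatment or genotype is given in the labels. With 1 array a group there is no spread between cultures and no test, and precision is limited by having 2 arrays. In a bulk sample, fewer cells that make a transcript and less of it per cell cannot be told apart.

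Cells build glycerolipids by adding fatty acids one after another to glycerol-3-phosphate in the endoplasmic reticulum. Glycerol-3-phosphate acyltransferases (GPAT) make lysophosphatidic acid, acylglycerophosphate acyltransferases (AGPAT) turn it into phosphatidic acid, lipins remove the phosphate to give diacylglycerol, and diacylglycerol acyltransferases (DGAT) make triacylglycerol. Triacylglycerol is stored in lipid droplets, which perilipins coat. Mast cells are known to hold lipid droplets that store arachidonic acid, the precursor of prostaglandins and leukotrienes.

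The deposited values are whole-number probe-set intensities on a linear scale, and each difference is log2 of the CD2-positive minus log2 of the CD2-negative intensity. A gene stood for its brightest probe set and was compared where the higher array reached 64, which 3564 genes did. Both arrays had a median intensity of 4, and the 27 Bacillus probe sets, which human RNA should not bind, read 1 to 4. CD2 read 219 in CD2-positive and 13 in CD2-negative cells. The mast cell genes KIT, HDC and TPSAB1 read 1373, 1715 and 4806 in CD2-positive and 1328, 1219 and 3142 in CD2-negative cells, in that order. CPA3 read 1220 in CD2-positive and 207 in CD2-negative cells, HPGDS 187 in CD2-positive and 80 in CD2-negative cells, GATA2 181 in CD2-positive and 164 in CD2-negative cells and FCER1A 27 in CD2-positive and 8 in CD2-negative cells. Adipocyte, macrophage and hepatocyte markers were below 64 on both arrays in all 22 measured genes. The highest of them read 11. FABP4, ADIPOQ and LEP read 2 on both arrays, as did CD14 and ALB. Summed over the measured genes, adipocyte markers reached 31 in CD2-positive and 36 in CD2-negative cells. Macrophage markers summed to 16 in CD2-positive and 17 in CD2-negative cells, and hepatocyte markers to 22 in CD2-positive and 23 in CD2-negative cells.

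Among the measured genes of the set, GPAT3 was lower and PLIN2 was higher in the CD2-positive subclone, each by more than 2-fold, and the other 7 differed by less than 1.5-fold. Of the 6 genes that reached the floor of 64, 1 was at least 2-fold higher and 1 at least 2-fold lower. Over all compared genes, 1.21% were at least 2-fold higher and 0.758% at least 2-fold lower. By probe set, 8 of the 18 reached the floor, of which 1 was at least 2-fold higher, against 1.23% of all such probe sets, and 1 at least 2-fold lower, against 0.679%. The members' counts were not independent of the choice of the set, and nothing is read from them. GPAT4, AGPAT1, AGPAT2 and LPIN1 all had small positive differences, between 0.13 and 0.31. The median of the 6 genes was 0.23, against -0.05 over all compared genes. LPIN2, DGAT1 and DGAT2 stayed below the floor on both arrays.

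**Figure D1:**
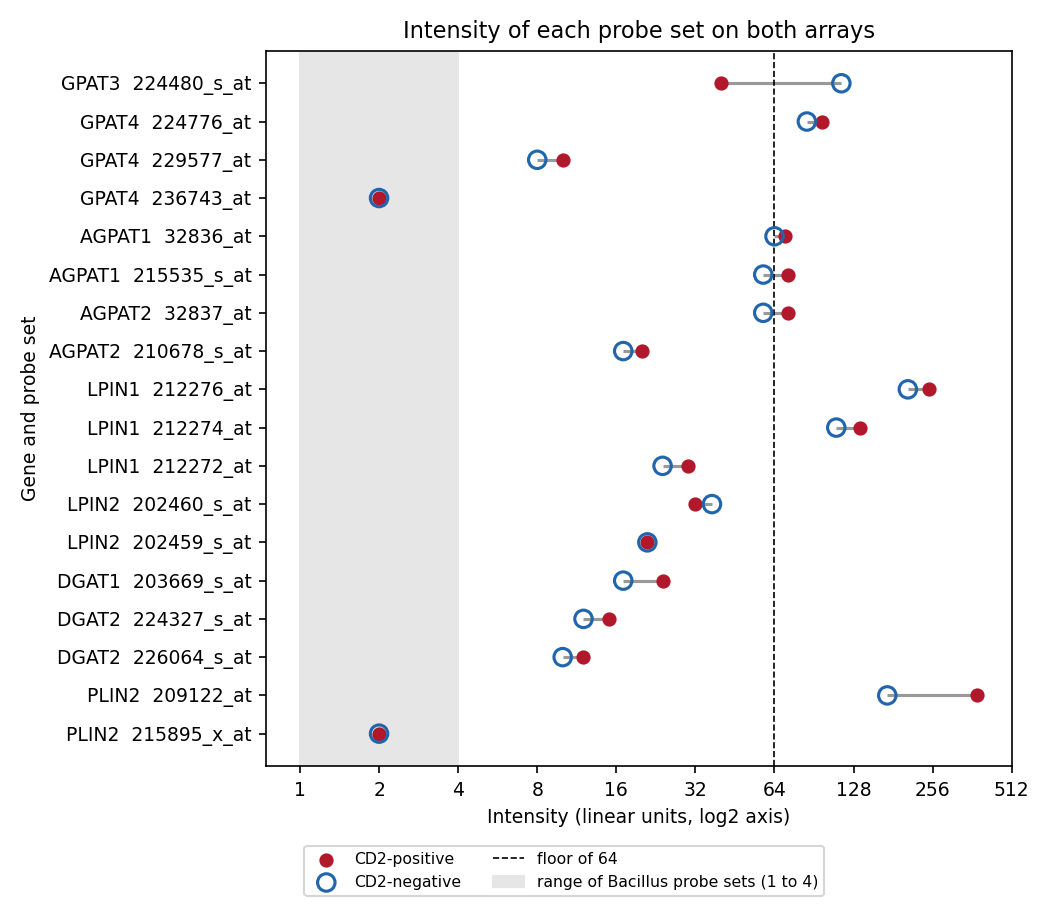
Intensity of the 18 probe sets on the CD2-positive (filled red) and CD2-negative (open blue) array, on a log2 axis, with 1 row for each probe set. GPAT3 reads 40 in CD2-positive and 115 in CD2-negative cells and PLIN2 379 in CD2-positive and 172 in CD2-negative cells with its brighter probe set, while the 2 points of the other rows lie close together.

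GPAT3 encodes an acyltransferase of the endoplasmic reticulum that acts at the entry of the pathway. Its single probe set read 40 in CD2-positive and 115 in CD2-negative cells. The log2 difference was -1.52, a 2.88-fold lower signal in the CD2-positive subclone, and rounding to whole numbers bounds it between -1.55 and -1.499. Only the CD2-negative value reached the floor, so GPAT3 entered the comparison through the array on which it was high. Counted from the most negative difference, it ranked 9th of the 3564 compared genes. No second probe set of GPAT3 was available, and the suffix _s in its identifier marks probes that match more than 1 transcript.

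PLIN2 encodes perilipin 2 or adipophilin, the coat protein of lipid droplets in many cell types, which is degraded when it is not bound to a droplet. Its brighter probe set read 379 in CD2-positive and 172 in CD2-negative cells. Both values lay above the floor. The log2 difference was 1.14, a 2.20-fold higher signal in the CD2-positive subclone, with rounding bounds of 1.13 and 1.15. Of the compared genes, 48, PLIN2 included, differed at least as much in either direction. The other PLIN2 probe set read 2 on both arrays, no more than the Bacillus probe sets, and gives no second measurement.

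The windows of 250 bases before the RefSeq transcription start of GPAT3 and PLIN2 are shown because these are the 2 members past 2-fold, in opposite directions. They come from RefSeq on build GRCh38.p14; the array files name no build. GPAT3 lies at chr4:83535857-83536106 on the plus strand, before the first of 2 listed starts 1 base apart, and RefSeq's gene record begins further upstream. PLIN2 lies at chr9:19127493-19127742 on the minus strand. Capitals mark matches to the motifs named after the sequences.
GPAT3: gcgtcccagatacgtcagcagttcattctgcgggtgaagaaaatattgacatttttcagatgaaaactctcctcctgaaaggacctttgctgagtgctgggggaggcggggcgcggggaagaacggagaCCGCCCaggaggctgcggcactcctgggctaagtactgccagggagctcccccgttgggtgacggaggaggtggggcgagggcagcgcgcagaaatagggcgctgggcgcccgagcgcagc
PLIN2: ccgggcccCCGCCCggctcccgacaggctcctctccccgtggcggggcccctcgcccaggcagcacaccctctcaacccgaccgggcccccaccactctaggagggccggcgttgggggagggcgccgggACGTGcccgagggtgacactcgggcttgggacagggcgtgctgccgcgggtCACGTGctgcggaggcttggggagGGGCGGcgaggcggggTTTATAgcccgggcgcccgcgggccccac

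The motifs were searched on both strands in these windows and in all 35116 windows of the same length. The E-box CACGTG, which MYC, USF and MITF family factors are known to bind, was found in the PLIN2 window, starting 69 bases before the start, and not in that of GPAT3. It occurs in 6.34% of all windows. The core ACGTG of the hypoxia element had 3 matches in the PLIN2 window, 2 of them inside the E-box, and occurs in 18.5% of windows. A TATAAA match lay 29 bases before the PLIN2 start, on the minus strand of the printed sequence, and 10.7% of windows hold one. The GC box GGGCGG matched once in the GPAT3 and in 2 places in the PLIN2 window, and 42.6% of windows hold it. CCAAT (32% of windows), the cAMP response element TGACGTCA (1.65%), the AP-1 site TGANTCA (6.57%), the sterol regulatory element TCACNCCAC (0.883%) and the full PPAR element (0.0171%) had no match in either window. The PLIN2 window was 78.0% G and C and that of GPAT3 62.4%, against a median of 58.0% over all windows. A match is a description of the letters and not a measured binding site.

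GPAT4, the other glycerol-3-phosphate acyltransferase of the endoplasmic reticulum in the set, did not share the difference of GPAT3. Its brightest probe set read 97 in CD2-positive and 85 in CD2-negative cells, a log2 difference of 0.19. A dim probe set read 10 in CD2-positive and 8 in CD2-negative cells, and the third read 2 on both arrays. The remaining glycerol-3-phosphate acyltransferases, the mitochondrial enzyme gene GPAM and GPAT2, were close to background: GPAM read 5 in CD2-positive and 7 in CD2-negative cells and GPAT2 2 on both arrays. Of the 4 genes for this step, GPAT3 and GPAT4 thus had values above 64 on at least 1 array. Only GPAT3 differed by 2-fold or more, and the difference of GPAT4 was small.

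Both measured AGPAT genes, whose enzymes make phosphatidic acid, were slightly brighter in the CD2-positive subclone. AGPAT1 read 70 in CD2-positive and 64 in CD2-negative cells with its brightest probe set, and 72 in CD2-positive and 58 in CD2-negative cells with the other. Their log2 differences were 0.13 and 0.31. AGPAT2, the enzyme gene known from inherited generalised lipodystrophy, read 72 in CD2-positive and 58 in CD2-negative cells (0.31), and its dimmer probe set 20 in CD2-positive and 17 in CD2-negative cells (0.23). The AGPAT2 value passed the floor only on the CD2-positive array. Across 937 genes with at least 2 probe sets above the floor, the spread of the difference between probe sets of a gene was 0.13 as the standard deviation for 1 probe set. The difference of AGPAT1 was about 1 such standard deviation with its brightest probe set. This spread covers probes and not cultures.

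The lipin genes, for the enzymes that make diacylglycerol, differed by small amounts. LPIN1 was measured by 3 probe sets, which read 247, 135 and 30 in CD2-positive and 206, 110 and 24 in CD2-negative cells. Their log2 differences of 0.26, 0.30 and 0.32 lay close together. LPIN2 read 32 in CD2-positive and 37 in CD2-negative cells, a difference of -0.21, and its second probe set read 21 on both arrays. Neither LPIN2 probe set reached the floor. LPIN3, the third lipin gene, read 3 on both arrays, within the range of the Bacillus probe sets.

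Both DGAT genes, for the last step to triacylglycerol, were dim. DGAT1 read 24 in CD2-positive and 17 in CD2-negative cells, a log2 difference of 0.50 with rounding bounds of 0.43 and 0.57. DGAT2 read 15 in CD2-positive and 12 in CD2-negative cells with 1 probe set and 12 in CD2-positive and 10 in CD2-negative cells with the other, differences of 0.32 and 0.26. Over the 2185 genes on the array with a mean log2 level between 4 and 5, the level of DGAT1, the middle 95% of differences ran from -0.72 to 0.72. Over the 1894 genes between 3 and 4, the level of DGAT2, it ran from -0.87 to 0.78. The differences of both genes lay inside these ranges.

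**Figure D2:**
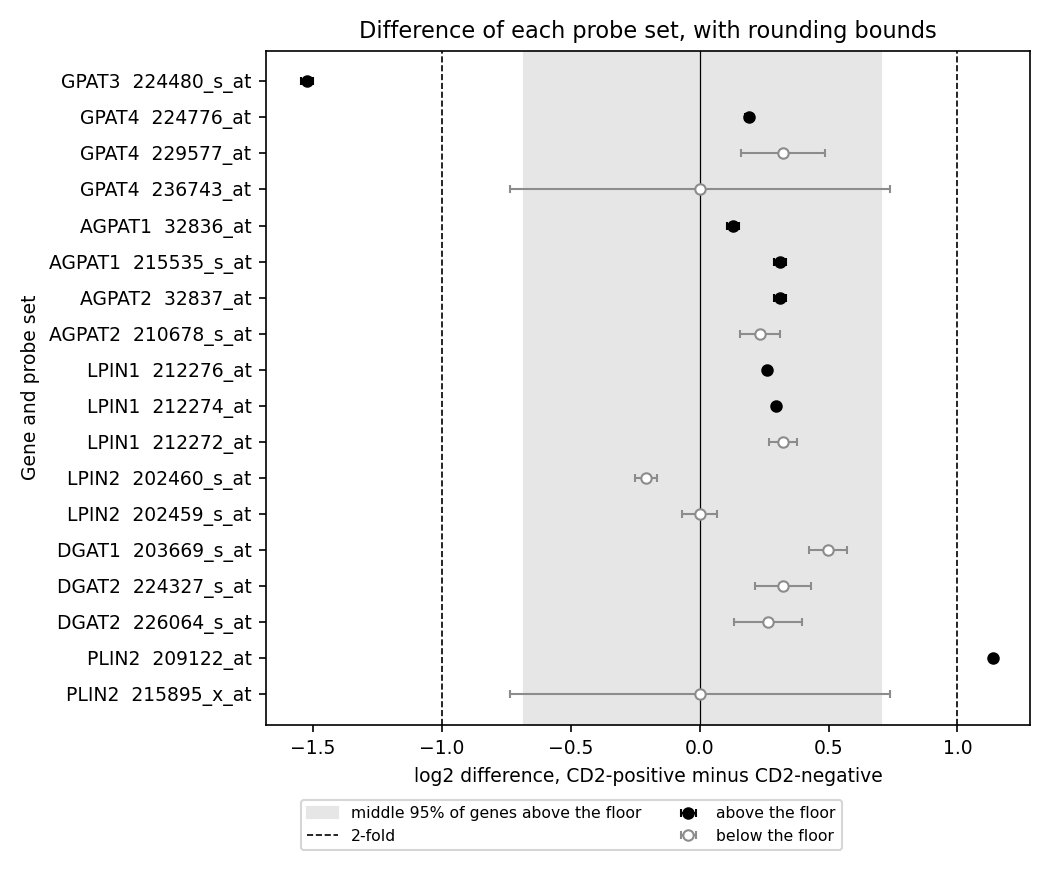
The log2 difference (CD2-positive minus CD2-negative) of each of the 18 probe sets, with bars for the bounds left by rounding to whole numbers; filled points reached 64 on at least 1 array. Of the 18, 13 are positive, 3 are 0 and 2 are negative, and GPAT3 and the brighter PLIN2 probe set alone lie outside the dashed 2-fold lines.

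**Figure D3:**
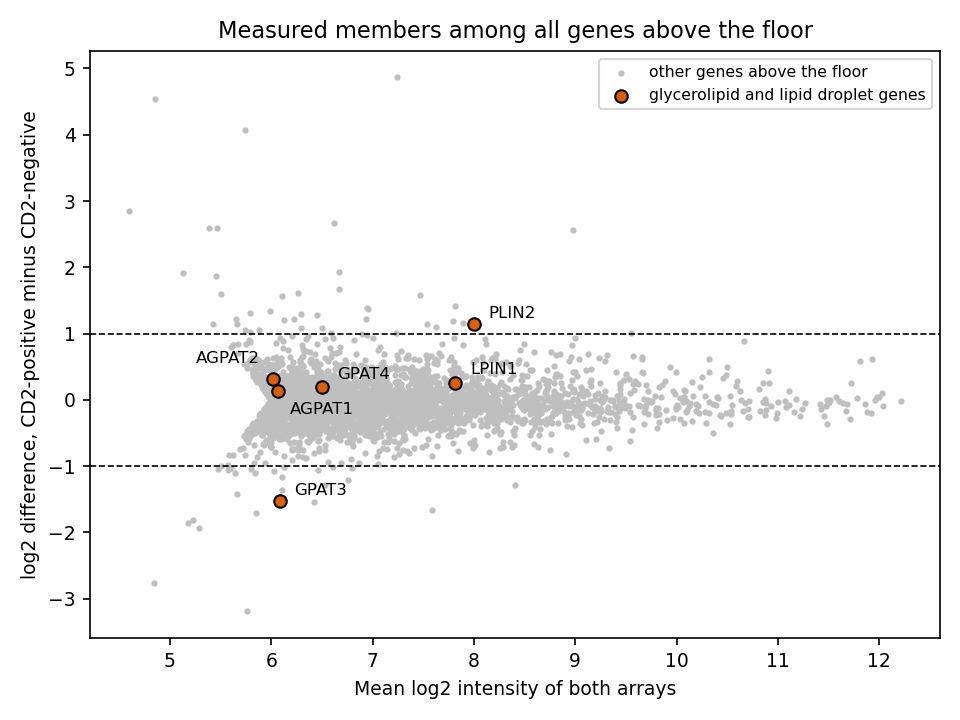
The log2 difference of the 3564 compared genes (grey) against their mean log2 intensity, with the 6 compared members in orange. GPAT3 at -1.52 lies below and PLIN2 at 1.14 above the dashed 2-fold lines, and GPAT4, AGPAT1, AGPAT2 and LPIN1 lie inside the main cloud.

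The chromosome neighbours of each member were read on the same arrays, taking up to 20 compared genes on either side in RefSeq order. For GPAT3, on chromosome 4, the 40 neighbours had a median of -0.12, with 26 negative, 10 positive and 4 at 0, and the most negative was -0.48. GPAT3 at -1.52 lay below all 40. The nearest compared genes on its sides, MRPS18C and AFF1, had differences of -0.41 and 0.42. For PLIN2, on chromosome 9, the 25 neighbours had a median of 0.09. The most positive of them, the annexin pseudogene ANXA2P2 at 1.92, lay above PLIN2 at 1.14. The suffix _x of the ANXA2P2 probe set marks probes that may also bind other transcripts, and ANXA2 itself differed by 2.66. The next most positive neighbour, UBAP2 at 0.50, lay below PLIN2. The compared genes nearest to PLIN2, RRAGA and DENND4C, had differences of 0.27 and 0.10. LPIN1, on chromosome 2, lay among neighbours of which 35 of 39 were positive. Their median of 0.34 exceeded its own 0.26. The part of this neighbourhood in the LPIN1 difference was not tested. Neighbour medians of the other 6 measured members ran from -0.11 to 0.00.

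**Figure D4:**
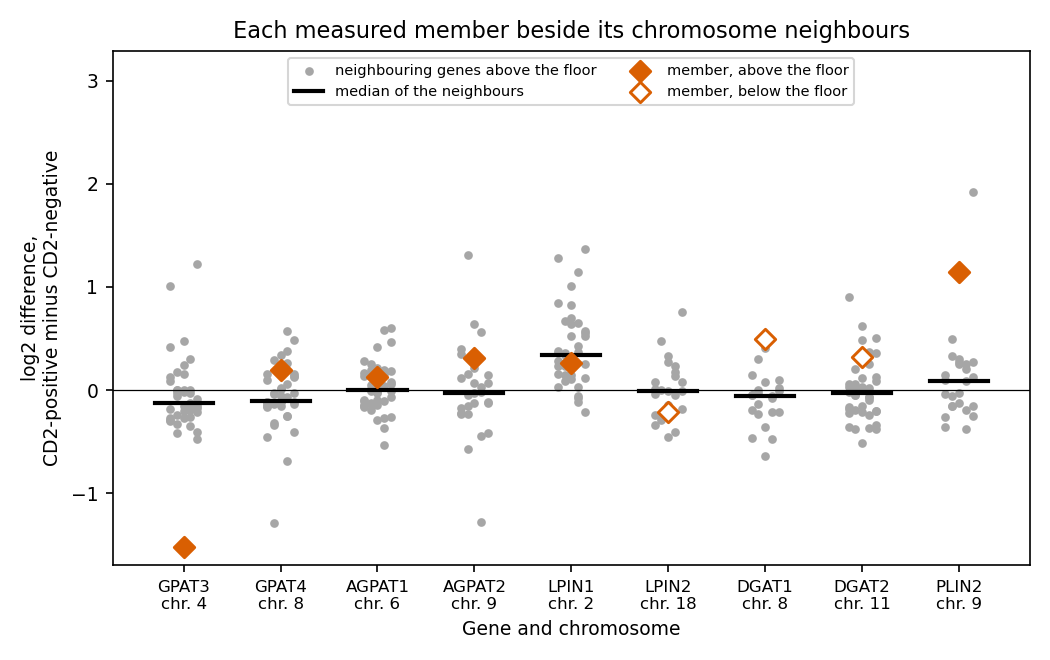
The log2 difference of each measured member (diamond, open where below 64 on both arrays) beside those of its neighbouring compared genes (grey points, black bar at their median). GPAT3 lies below all 40 neighbours, and LPIN1 at 0.26 lies near the neighbour median of 0.34.

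Genes of the wider pathway were taken from 7 lists with 120 measured genes besides the set. Of these, 27 reached the floor and none was at least 2-fold higher or lower, against 1.96% of all compared genes. Positive differences were measured in 20 and negative ones in 7, with a median of 0.16 and a range from -0.34 to 0.88. Over all compared genes, 41.9% were positive. Some of the 27 entered the count only through the array on which they were high. DGKZ, LCLAT1, SCAP and SREBF1 did so on the CD2-positive array, and FAF2 and PCYT1A on the CD2-negative array. With no floor, the medians of the 7 lists ran from 0 to 0.19. After centring on the hybridisation controls, 24 of the 27 were positive, against 69.2% of all compared genes, and CDIPT, CEBPB, PCYT1A and SLC27A2 changed sign.

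The 3 other acyltransferases above the floor had positive differences, with a median of 0.22. AGPAT5, for a mitochondrial acyltransferase, read 155 in CD2-positive and 116 in CD2-negative cells (0.42). MBOAT7, whose enzyme is known to put arachidonic acid into phosphatidylinositol, read 312 in CD2-positive and 267 in CD2-negative cells (0.22), and LCLAT1, for a lysocardiolipin acyltransferase, 73 in CD2-positive and 63 in CD2-negative cells (0.21). The LCLAT1 value passed the floor only on the CD2-positive array. For phosphatidate and diacylglycerol handling, 2 genes were above the floor. DGKZ, for a kinase that turns diacylglycerol back into phosphatidic acid, read 94 in CD2-positive and 51 in CD2-negative cells (0.88). DGKZ reached the floor only on the CD2-positive array, and its other probe set stayed below the floor. It passed 2-fold when centred on the hybridisation controls, since that adds 0.18 to each difference. PLPP1, for a phosphatase of lipid phosphates, read 472 in CD2-positive and 386 in CD2-negative cells (0.29).

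Genes for glycerol-3-phosphate supply and fatty acid activation went both ways, with 2 positive and 2 negative differences of 4 and a median of 0.05. DBI, for the acyl-CoA-binding protein, read 2215 in CD2-positive and 1646 in CD2-negative cells (0.43), with 3 probe sets between 0.43 and 0.53, whose suffix _x marks probes that may also bind other transcripts. ACSL4, for an acyl-CoA synthetase that prefers arachidonic acid, read 89 in CD2-positive and 106 in CD2-negative cells (-0.25), and all 3 of its probe sets were negative. ACSL5, for another acyl-CoA synthetase, read 79 in CD2-positive and 73 in CD2-negative cells (0.11).

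Lipid droplet coat and assembly genes other than PLIN2 had smaller differences than PLIN2, with a median of 0.16 over 3 positive and 2 negative members that reached the floor, and -0.08 over 2 with plain probe set identifiers. PLIN3, for the perilipin that binds nascent droplets, read 96 in CD2-positive and 86 in CD2-negative cells (0.16). PLIN1, PLIN4 and PLIN5 read at most 8 on either array. FAF2, for a protein of droplets and the endoplasmic reticulum in protein degradation, read 61 in CD2-positive and 77 in CD2-negative cells (-0.34). It passed the floor only on the CD2-negative array, and its other probe set, below the floor, had a positive difference. RAB18, for a small GTPase found on droplets, read 90 in CD2-positive and 108 in CD2-negative cells (-0.26), but its 3 probe sets above the floor ranged up to 0.05. AUP1, for another droplet protein, read 119 in CD2-positive and 100 in CD2-negative cells (0.25). HILPDA, for a hypoxia-induced droplet protein, read 17 in CD2-positive and 15 in CD2-negative cells, below the floor.

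The 3 lipid droplet breakdown genes above the floor had positive differences, with a median of 0.10, less than the spread between probe sets of 0.13. PNPLA2, for adipose triglyceride lipase, read 119 in CD2-positive and 111 in CD2-negative cells (0.10), LIPA, for lysosomal acid lipase, 229 in CD2-positive and 224 in CD2-negative cells (0.03), and SPART, for the droplet-binding protein spartin, 234 in CD2-positive and 187 in CD2-negative cells (0.32). ABHD5, for the activator of adipose triglyceride lipase, was below the floor at 48 in CD2-positive and 41 in CD2-negative cells. G0S2, for an inhibitor of adipose triglyceride lipase, read 2 on both arrays. Phospholipid synthesis genes lay near 0, with a median of -0.01 over 3 genes, or 0.17 relative to the hybridisation controls. PTDSS1, for a phosphatidylserine synthase, read 110 in CD2-positive and 100 in CD2-negative cells (0.14). PCYT1A, for the regulated enzyme of phosphatidylcholine synthesis, read 63 in CD2-positive and 69 in CD2-negative cells (-0.13), and CDIPT, for phosphatidylinositol synthase, 195 in CD2-positive and 196 in CD2-negative cells (-0.01). The PCYT1A value passed the floor only on the CD2-negative array, and of its 3 probe sets 1 was positive and 1 negative.

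Regulators of the pathway had a median of 0.30, with 6 of the 7 that reached the floor positive and 1 negative. Of those 7, SCAP, INSIG1 and SREBF1 lay farthest from 0, and SCAP and SREBF1 reached 64 only on the CD2-positive array. SCAP, for the escort protein of SREBP, read 80 in CD2-positive and 56 in CD2-negative cells (0.51). INSIG1, for the protein that retains SCAP, read 781 in CD2-positive and 584 in CD2-negative cells (0.42), with 3 probe sets between 0.42 and 0.74. SREBF1, for SREBP-1, read 65 in CD2-positive and 49 in CD2-negative cells (0.41). Below the floor, SREBF2, for SREBP-2, read 50 in CD2-positive and 43 in CD2-negative cells (0.22), and INSIG2, a relative of INSIG1, read 35 on both arrays. CEBPA, for a transcription factor of myeloid cells and adipocytes, read 11 in CD2-positive and 6 in CD2-negative cells (0.87), and CRTC2, for a CREB coactivator, 20 in CD2-positive and 29 in CD2-negative cells (-0.54). PPARG, for the adipocyte lipid regulator, read 2 in CD2-positive and 3 in CD2-negative cells, also within the range of the Bacillus probe sets.

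**Figure D5:**
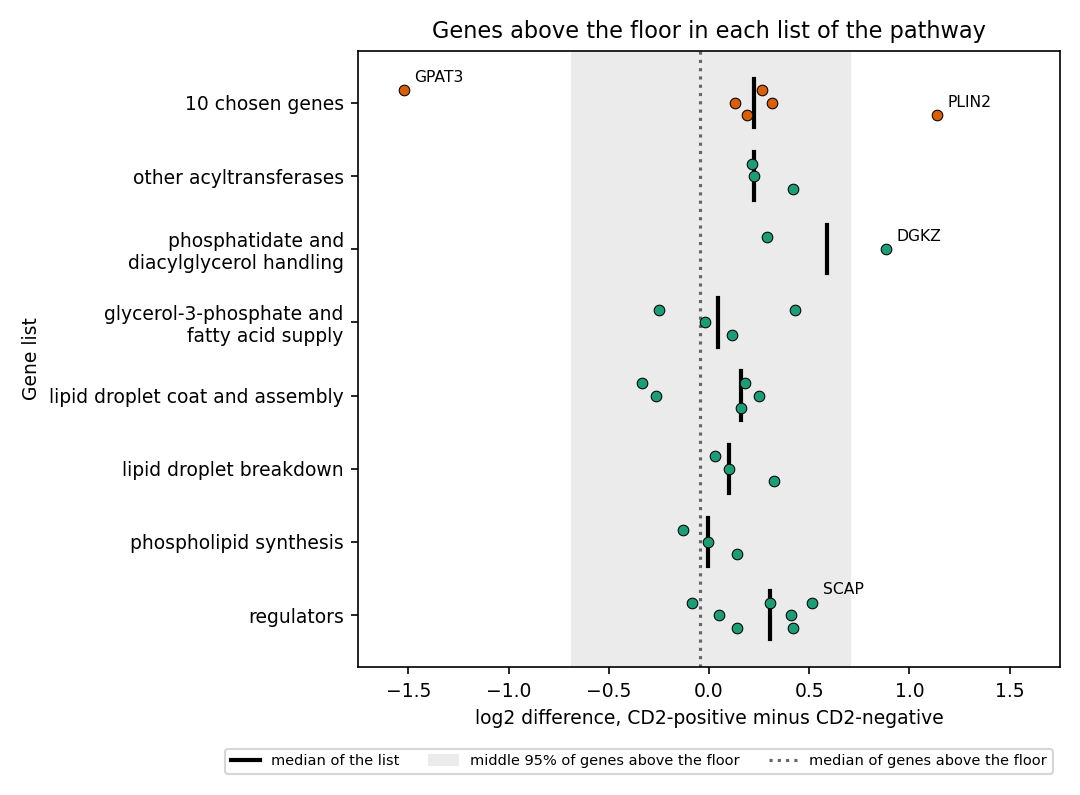
The log2 difference of each gene above the floor in the 10-gene set (orange) and in 7 further lists of the pathway (green), with a black bar at each list's median and grey shading over the middle 95% of compared genes. GPAT3, PLIN2 and DGKZ lie outside the shading, which runs from -0.68 to 0.70.

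The compared genes whose pair of levels was most like that of GPAT3 were ADM, ENTREP3 and BAIAP2L1. Likeness was the distance between the pairs of log2 values over the 2 arrays, and was 0.12 for ADM, 0.26 for ENTREP3 and 0.32 for BAIAP2L1. ADM, which encodes the peptide hormone adrenomedullin, read 43 in CD2-positive and 110 in CD2-negative cells, ENTREP3 46 in CD2-positive and 103 in CD2-negative cells and BAIAP2L1 45 in CD2-positive and 95 in CD2-negative cells. With 2 arrays such a ranking holds no more than that these genes were similarly bright and similarly lower in the CD2-positive subclone.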

How the data were processed

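The deposited values are probe-set intensity values, which the authors made by RMA with Expression Console 1.1 (per the submitters' processing notes). This method corrects background, quantile-normalises probes and summarises each probe set, which removes any difference in total signal between arrays. The linear scale and rounding were seen in the values; the background variant, not given in the sources used, would change low intensities. From these, log2 values and CD2-positive minus CD2-negative differences were computed with Python 3.11.15, pandas 2.3.3 and statsmodels 0.14.6. Of 54675 probe sets, 41097 carried 1 gene symbol and were used, 1801 carried several and 11777 were unnamed; 41043 matched RefSeq by Entrez identifier. A gene stood for its brightest probe set by mean log2, was compared at log2 6 (64) or more on the higher array, and was counted at 2-fold. Groups follow the labels, 1 array each, so no test was made.

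The members and lists were chosen with earlier results of these data known. Named genes were all members, the 3 list members above the floor farthest from 0 where none passed 2-fold, the 3 genes most like GPAT3, the mast cell markers and CD2; others were named after their values were seen. All 18 hybridisation control probe sets were lower on the CD2-positive array (median -0.18). Alternatives were other floors, size rules, probe set choices, centrings, a lowess correction (span 0.3) and an offset of 16. Plain probe set identifiers were those without the suffix _s, _x or _a. The suffix _r, carried by the PNPLA2 probe set used, counted as plain.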

Additional observations from a re-analysis of the deposited data

How the results depend on the processing

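Under the 11 alternatives, GPAT3 stayed negative and PLIN2, GPAT4, AGPAT1, AGPAT2 and LPIN1 stayed positive wherever they were compared. Most of this was fixed in advance, because floors and size rules cannot change the difference of a gene. Only the centrings, the lowess correction, the offset and, for genes with several probe sets, the probe set choice could move it. The difference of GPAT3 was -1.34 when centred on the hybridisation controls and -1.23 with an offset of 16, and that of PLIN2 ran from 1.07 to 1.32. The count of member genes at least 2-fold lower became 0 at a floor of log2 7 and with plain probe set identifiers, under which GPAT3 was not compared. The count at least 2-fold higher became 0 with the mean of all probe sets, where the dim PLIN2 probe set takes the gene below the floor. Both counts were 0 at 3-fold. The members' median was 0.70 over 2 genes at a floor of log2 7 and 0.41 after centring on these controls, a step that puts the median of all compared genes at 0.14 in place of -0.05. Over all genes, 43 higher and 27 lower became 77 and 48 at a floor of log2 5, 24 and 8 at log2 7, 307 and 380 with no floor, 26 and 13 with the mean, 25 and 12 with plain identifiers, 71 and 14 when centred on the controls, 153 and 136 at 1.5-fold and 15 and 7 at 3-fold. The share of higher among all calls was 61.4% as reported, 83.5% when centred on the controls, 75.7% (53 and 17) with lowess and 68.2% (30 and 14) with the offset. Of 207 further values, 175 moved by no more than the spread between probe sets (0.13) or 1.5-fold in a count. The other 32 moved by more. Many of the 175 had little or no room to move. Floors leave the difference of a gene unchanged, and the list counts were 0 as reported and mostly stayed 0. The 175 are therefore no measure of stability. A reversal was counted only for a difference of at least 1 in size as reported. Of the 207 further values only those of PLIN2 met this, and there were 0 reversals. Smaller values could change sign without being counted, as the droplet coat median did, from 0.16 to -0.08 with plain identifiers. Intensities near 4 carry no usable difference. No paired analysis was possible because each group holds 1 sample.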

Other observations

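Several genes of the wider pathway that stayed below the floor had more than 1 probe set with the same sign; they were chosen after their values were seen. PLD1, for a phospholipase D that makes phosphatidic acid from phosphatidylcholine, read 30, 29, 26 and 17 in CD2-positive and 18, 16, 13 and 9 in CD2-negative cells with its 4 brightest probe sets. Their log2 differences lay between 0.74 and 1. PPARA, for the fatty acid-sensing nuclear receptor, read 49, 40 and 39 in CD2-positive and 30, 26 and 23 in CD2-negative cells with its 3 brightest, differences of 0.71, 0.62 and 0.76. AGPAT4, for another lysophosphatidic acid acyltransferase, read 20 in CD2-positive and 12 in CD2-negative cells, and with its other probe set 13 in CD2-positive and 7 in CD2-negative cells.

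Some genes of the route to cardiolipin, the phospholipid of the inner mitochondrial membrane, were likewise below the floor. PGS1, for the enzyme of phosphatidylglycerophosphate synthesis, read 53 in CD2-positive and 29 in CD2-negative cells, and its dimmer probe set 8 in CD2-positive and 5 in CD2-negative cells. CRLS1, for cardiolipin synthase, read 31 in CD2-positive and 54 in CD2-negative cells, and with its next probe set 18 in CD2-positive and 29 in CD2-negative cells, differences of -0.80 and -0.69. PTPMT1, for the phosphatase between these enzymes, read 10 in CD2-positive and 11 in CD2-negative cells (-0.14), and TAFAZZIN, for the enzyme that remodels cardiolipin, 33 in CD2-positive and 37 in CD2-negative cells (-0.17). The probe sets of CDS2, for an enzyme that makes CDP-diacylglycerol, went both ways, with differences of -0.62, -0.32, 0.14, 0.26 and 0. None of these values reached the floor of 64.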
